A study of Mus musculus with 6 samples.

Results

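The genes described here are 41 genes of the germline and of meiosis, chosen by name with earlier results of these data known. Of these, 38 had a probe set that carried their symbol alone and were measured, among 22180 genes on the array. Sycp3 shared its probe set with Chpt1, and Tuba3a and Tuba3b shared theirs with each other, so these 3 genes were left out. Each measured gene had 1 probe set. Mouse embryonic stem cells were lentivirally transduced with short hairpin RNAs (shRNAs) that target Chd4 or Mbd3, or with a control shRNA, and each of the 3 lines was sampled at day 0 and day 4. Day 0 cells grew on gelatin in medium with serum and leukemia inhibitory factor. Day 4 cells had been re-aggregated in low-adhesion plates in a serum-replacement medium for 4 days of neural differentiation. Every group was thus infected cells with an shRNA, and each of the 6 groups held 1 Mouse Gene 2.0 ST array of total RNA. Whether a line was a pool or a clone, and which stem cells it was made from, was not stated in the labels. With 1 array per group no difference between 2 arrays has a test, and "higher" and "lower" below describe these arrays.

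Chd4 is the remodeling ATPase of NuRD, a chromatin complex that also removes acetyl groups from histones, and Mbd3 is one of its scaffold subunits. Germline genes are silenced in most somatic cells, many of them by DNA methylation of CpG-rich promoters and by a variant Polycomb complex with MGA, MAX, PCGF6 and the repressor E2F6. Embryonic stem cells hold this silencing incompletely and express part of the set. In germ cells the products of these genes control the entry into meiosis, silence transposons through PIWI-interacting RNAs (piRNAs), pair the homologous chromosomes and exchange DNA between them.

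The targeted genes were read first. In its own knockdown, Chd4 intensity was 71.3% of the control level at day 4 and 29.8% at day 0, and that of Mbd3 was 75.5% at day 4 and 43.0% at day 0. Array medians lay between 39.6 and 41.4. The higher of these, 41.4, served as a floor: a gene whose dimmer value lay under it is given against 41.4 as "at least", and a gene with both values under it has no fold. Of the 38 genes, 16 were at or above the floor on every array and 6 were under it on every array (Tdrd1, Tdrd9, Mei1, Msh4, Tex101 and Dpep3). A weak signal of 1 probe set may also come from other transcripts, and no detection call is used here.

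Cell type markers were read beside the genes. The 9 markers of naive stem cells summed at day 4 to an intensity of 5501 in Chd4-knockdown cells, 4915 in Mbd3-knockdown cells and 1858 in control. At day 0 the sums were 10933 in Chd4-knockdown cells, 8856 in Mbd3-knockdown cells and 9638 in control, with all 9 markers above the floor. The 9 markers of early neural cells summed at day 4 to 750 in Chd4-knockdown cells, 1197 in Mbd3-knockdown cells and 6230 in control, and at day 0 to 361 in Chd4-knockdown cells, 363 in Mbd3-knockdown cells and 432 in control. Day 4 knockdown cells thus carried more stem cell RNA and less neural RNA than day 4 control cells, whose part in the differences of the germline genes was not tested. In such bulk RNA, more cells that express a gene and more RNA per cell cannot be told apart. Of 7 markers of haploid spermatids 6 were under the floor on every array, among them Prm1, Tnp1 and Acrv1, and the exception, Odf1, ranged from 3427 to 4159. Of 8 markers of feeder fibroblasts 4 were under the floor on every array (summed intensity 344 to 460), with 0 genes past 2-fold in either knockdown at either day. Of 9 markers of gonadal somatic cells, 2 were under the floor on every array, including Nr5a1. The sums at day 4 were 483 in Chd4-knockdown cells, 526 in Mbd3-knockdown cells and 568 in control. At day 0 they were 409 in Chd4-knockdown cells, 374 in Mbd3-knockdown cells and 443 in control. Sox9, which neural cells express too, made up 247 of the day 4 control sum, against 62.8 in Chd4-knockdown cells and 90.4 in Mbd3-knockdown cells. Wt1 was higher in both knockdowns at day 4, so the sums show no shared direction of the list.

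Germline genes were mostly higher in Chd4-knockdown cells than in control at day 4. Of the 38 genes, 14 (36.8%) passed 2-fold upward, against 3.15% of all 22180 genes, and 1 was at least 2-fold lower, against 4.11% of all genes. The median log2 difference of the 38 genes was 0.55, against 0.001 over all genes, and 31 of 38 (81.6%) were higher by any amount, against 50.4% of all genes. With values under the floor set to it, 12 genes stayed at least 2-fold higher, against 2.76% of all genes, and the median was 0.22. With Mbd3 knocked down, 7 of 38 genes passed 2-fold upward at day 4, against 2.11% of all genes, and 1 was lower, against 3%, with a median of 0.22. With the floor, 6 of these stayed at least 2-fold higher, against 1.95% of all genes, and the Mbd3 median was 0.045. Both comparisons use the same control array, so their shared direction is no independent support. The list was chosen with earlier results of these data known, so its excess over all genes is no independent support either. At day 0 the same contrasts gave 1 gene at least 2-fold higher and 0 lower in Chd4-knockdown cells (all genes 0.419% and 0.343%), and 0 higher and 1 lower in Mbd3-knockdown cells (all genes 0.221% and 0.189%), with medians of 0.05 and -0.13.

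**Figure D1:**
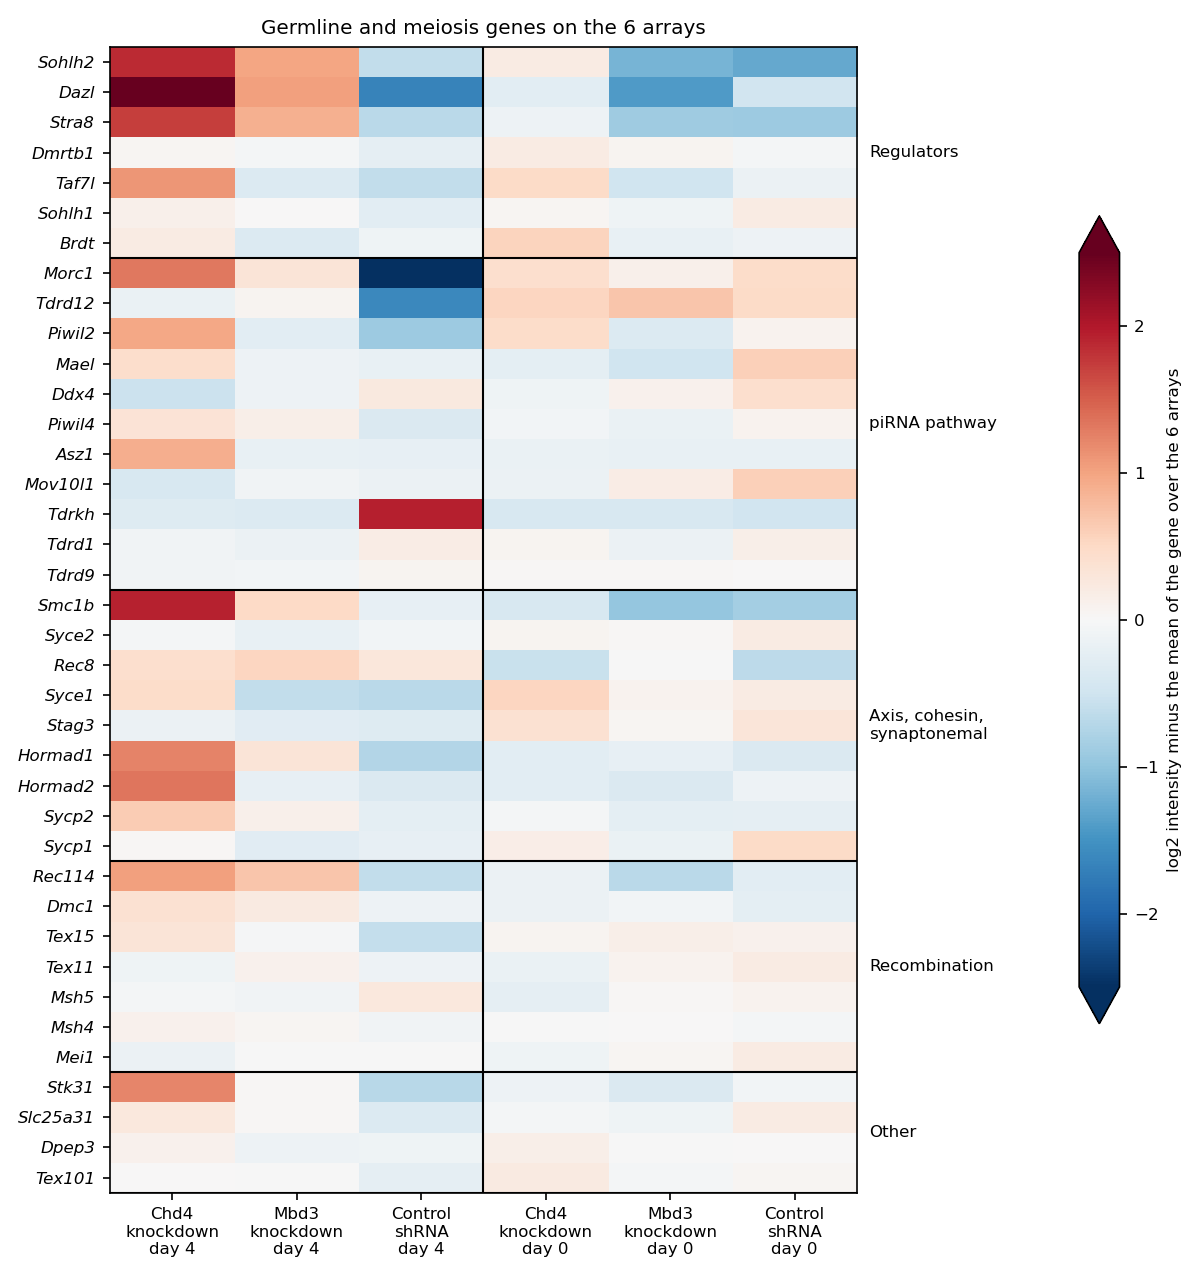
Intensity of the 38 measured genes on the 6 arrays (columns), as log2 minus the mean of each gene over the arrays (colour, red for above and blue for below the mean; the scale is cut at both ends), so that rows cannot be compared for level. Genes are grouped by role; 18 of 38 genes were highest in Chd4-knockdown cells at day 4 and 18 lowest in control at day 4.

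Promoter windows of 300 bases (250 before to 50 after a transcript start) from RefSeq, build GRCm38.p6, were available for 34 of the 38 measured genes; Morc1, Piwil2, Tex11 and Tex15 had none in the table. They are shown because many of these genes were higher together at day 4, and the choice of the 7 printed here was made after their values were seen. Capitals mark CACGTG, the E-box letters that MGA and MAX bind, then GCGGGA, a core that E2F factors bind, and AGGTCA, a short nuclear receptor element of the kind that retinoic acid receptors bind, each on either strand. Dazl lies at chr17:50293571-50293870 (- strand), Stra8 at chr6:34920698-34920997 (+ strand), Smc1b at chr15:85131908-85132207 (- strand) and Rec114 at chr9:58741510-58741809 (- strand). Hormad1 lies at chr3:95559427-95559726 (+ strand), Taf7l at chrX:134476441-134476740 (- strand) and Sohlh1 at chr2:25847199-25847498 (- strand). The first 6 belong to genes at least 2-fold higher in Chd4-knockdown cells than in control at day 4, and Sohlh1 to a gene that was not. The windows of Stra8, Taf7l and Rec114 belong to transcript starts inside the span that RefSeq gives the gene, by a few bases for Taf7l and far inside for Rec114. All are written 5′ to 3′ on the strand of the gene.
Dazl: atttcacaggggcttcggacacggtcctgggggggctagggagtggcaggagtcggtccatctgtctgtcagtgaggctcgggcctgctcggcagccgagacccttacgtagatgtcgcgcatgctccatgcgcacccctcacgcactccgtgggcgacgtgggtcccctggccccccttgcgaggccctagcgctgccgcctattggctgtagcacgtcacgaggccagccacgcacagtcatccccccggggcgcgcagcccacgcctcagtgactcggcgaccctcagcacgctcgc
Stra8: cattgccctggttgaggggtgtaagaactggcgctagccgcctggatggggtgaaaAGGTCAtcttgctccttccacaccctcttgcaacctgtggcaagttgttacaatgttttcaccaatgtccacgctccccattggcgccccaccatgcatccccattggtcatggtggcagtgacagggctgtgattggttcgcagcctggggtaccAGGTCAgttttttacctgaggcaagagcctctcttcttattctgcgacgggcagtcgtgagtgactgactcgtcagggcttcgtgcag
Smc1b: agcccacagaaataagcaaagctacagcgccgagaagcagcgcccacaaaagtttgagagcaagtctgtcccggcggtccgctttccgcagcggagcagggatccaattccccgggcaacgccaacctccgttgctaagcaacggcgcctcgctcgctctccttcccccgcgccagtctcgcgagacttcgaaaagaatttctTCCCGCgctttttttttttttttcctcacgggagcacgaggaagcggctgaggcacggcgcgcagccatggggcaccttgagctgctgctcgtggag
Rec114: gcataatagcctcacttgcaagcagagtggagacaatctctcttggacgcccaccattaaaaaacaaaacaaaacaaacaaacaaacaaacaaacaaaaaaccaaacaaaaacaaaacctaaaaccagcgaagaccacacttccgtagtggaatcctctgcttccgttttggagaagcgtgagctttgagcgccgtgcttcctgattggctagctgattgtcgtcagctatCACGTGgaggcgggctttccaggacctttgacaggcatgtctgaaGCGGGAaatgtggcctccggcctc
Hormad1: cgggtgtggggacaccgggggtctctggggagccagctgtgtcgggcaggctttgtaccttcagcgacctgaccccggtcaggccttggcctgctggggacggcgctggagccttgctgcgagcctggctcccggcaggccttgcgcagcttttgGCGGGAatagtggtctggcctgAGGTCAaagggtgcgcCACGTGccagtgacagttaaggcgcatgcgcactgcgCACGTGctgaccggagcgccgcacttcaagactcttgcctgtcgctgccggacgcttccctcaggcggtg
Taf7l: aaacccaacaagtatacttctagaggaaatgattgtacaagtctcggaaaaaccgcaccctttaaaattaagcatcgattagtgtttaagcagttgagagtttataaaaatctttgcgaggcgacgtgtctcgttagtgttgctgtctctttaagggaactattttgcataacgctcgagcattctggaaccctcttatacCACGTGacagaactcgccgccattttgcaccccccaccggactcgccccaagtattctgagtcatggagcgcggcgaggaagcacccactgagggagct
Sohlh1: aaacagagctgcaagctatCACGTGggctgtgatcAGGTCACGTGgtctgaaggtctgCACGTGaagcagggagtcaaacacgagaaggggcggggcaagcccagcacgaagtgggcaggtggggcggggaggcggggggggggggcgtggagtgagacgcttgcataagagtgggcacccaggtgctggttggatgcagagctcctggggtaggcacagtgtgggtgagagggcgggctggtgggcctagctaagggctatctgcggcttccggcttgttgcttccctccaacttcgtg

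Dazl has 28 CpG in its window and none of the 3 motifs. Stra8 has 2 AGGTCA matches, which begin 194 and 38 bases before the start. Smc1b has 1 GCGGGA match, written there on the other strand, that begins 47 bases before the start. The single CACGTG of Rec114 begins 19 bases before its start and that of Taf7l 49 bases before. Hormad1 has 2, 57 and 20 bases before, and Sohlh1 has 3, of which 1 shares bases with an AGGTCA. Counted per gene, over any of its windows, CACGTG stood in 15 of 34 germline genes (44.1%), against 9.19% of 16990 genes with a probe set and 8.09% of all 27025 genes with a window. It stood in 4 of the 12 genes with a window that were at least 2-fold higher in Chd4-knockdown cells at day 4, and in 11 of the other 22. GCGGGA stood in 12 of 34 (35.3%), against 28.5% of genes with a probe set and 22.1% of all genes with a window, and AGGTCA in 5 of 34 (14.7%), against 16.4% and 18.1%. The median number of CpG in a window was 18.5 for the germline genes and 15 for genes with a probe set. These are matches of letters, and no binding was measured.

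Among the regulators of germ cell fate, 4 of 7 genes were at least 2-fold higher in Chd4-knockdown cells than in control at day 4, and 3 of 7 in Mbd3-knockdown cells, where the shares over all genes were 3.15% and 2.11%. Dazl encodes an RNA-binding protein that controls translation in germ cells. At day 4 its intensity was 1104 in Chd4-knockdown cells and 324 in Mbd3-knockdown cells, against 49.5 in control. At day 0 it was 132 in Chd4-knockdown cells and 59.6 in Mbd3-knockdown cells, against 113 in control. Dazl was thus 22.3-fold higher in Chd4-knockdown cells and 6.54-fold higher in Mbd3-knockdown cells than in control at day 4, and its log2 difference of 4.48 in Chd4-knockdown cells was the largest upward difference of the 22180 genes in that comparison.

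Sohlh2 encodes a bHLH factor of spermatogonia and oocytes that pairs with the product of Sohlh1. Its intensity at day 4 was 1697 in Chd4-knockdown cells and 934 in Mbd3-knockdown cells, against 307 in control. The day 0 values were 543 in Chd4-knockdown cells and 209 in Mbd3-knockdown cells, against 192 in control. It was the 1 germline gene past 2-fold in Chd4-knockdown cells at day 0, at 2.83-fold higher than control. Its partner Sohlh1 stayed between 34.1 and 47.2 on all 6 arrays, with 44.8 in Chd4-knockdown cells and 41.6 in Mbd3-knockdown cells at day 4, against 34.1 in control, which was under the floor.

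Stra8 encodes the retinoic-acid-induced protein that starts meiosis. It stood at 211 in Chd4-knockdown cells and 117 in Mbd3-knockdown cells at day 4, against 39.9 in control, and was at least 5.09-fold and at least 2.82-fold higher. At day 0 it stood at 57.8 in Chd4-knockdown cells and 34.2 in Mbd3-knockdown cells, against 33.6 in control. Both control values and the Mbd3 value at day 0 lay under the floor.

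Taf7l, the germ-cell paralog of a TFIID subunit, was above the floor in the Chd4 line alone. It read 83.3 in Chd4-knockdown cells and 30.7 in Mbd3-knockdown cells at day 4, against 25.6 in control, and was at least 2.01-fold higher in Chd4-knockdown cells. The day 0 values were 54.2 in Chd4-knockdown cells, 27.7 in Mbd3-knockdown cells and 35.3 in control. Brdt, a bromodomain protein of the testis, likewise reached the floor only in Chd4-knockdown cells, at 44.0 at day 4 and 56.5 at day 0, and read 30.2 to 35.5 on the other 4 arrays. Dmrtb1, a DM-domain factor of the step from spermatogonial division to meiosis, ranged from 70.3 to 94.6.

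**Figure D2:**
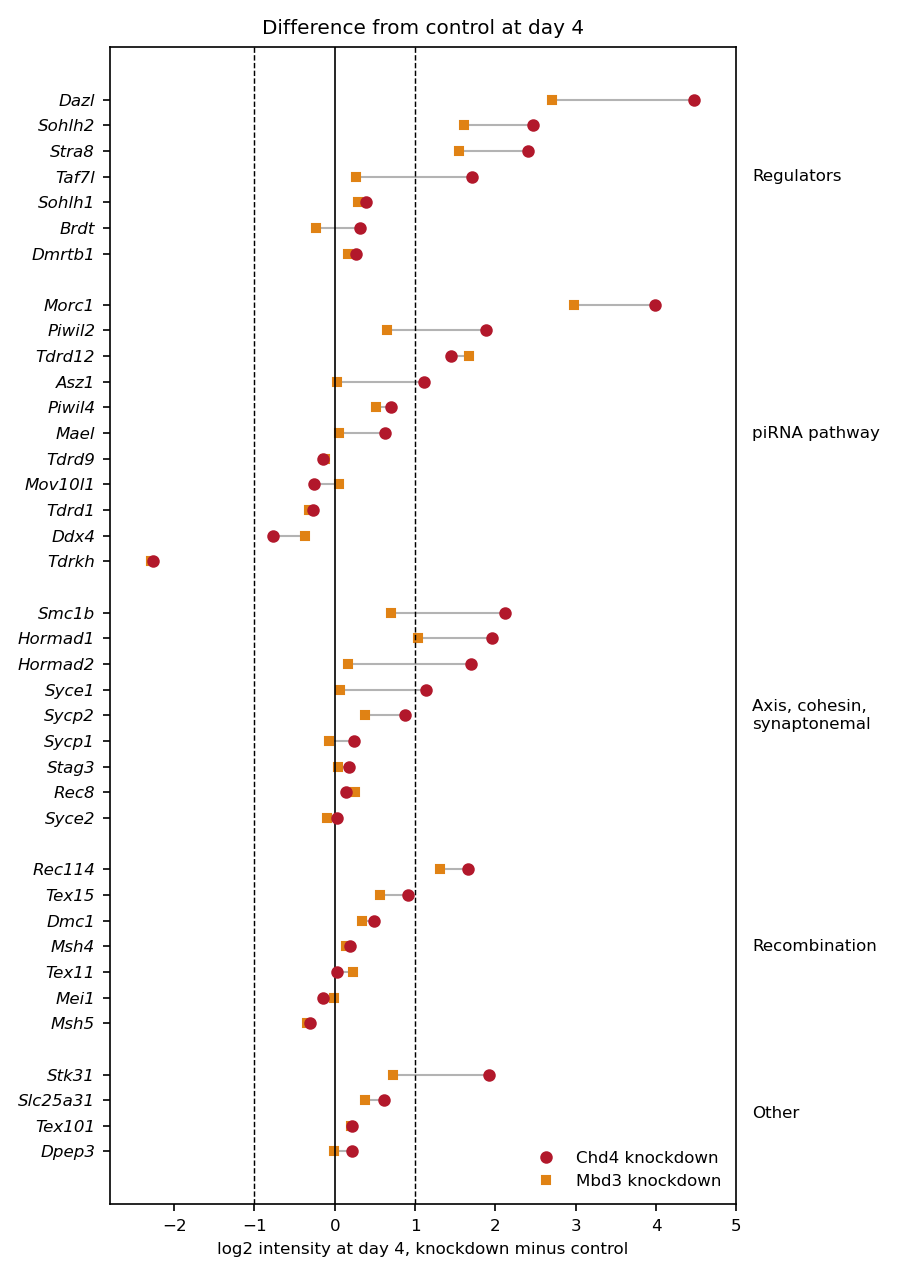
Log2 intensity at day 4 in Chd4-knockdown cells (red circles) and the Mbd3 knockdown (orange squares) minus control, for the 38 genes by role; dashed lines mark 2-fold. Dazl (4.48 and 2.71) and Morc1 (3.98 and 2.98) lie farthest to the right, and Tdrkh (-2.27 and -2.29) lies alone past 2-fold on the left. Values of dim genes are shown without the floor.

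Of the 11 genes of the piRNA pathway and transposon silencing, 4 passed 2-fold upward and 1 downward in Chd4-knockdown cells at day 4, and 2 were higher and 1 lower in Mbd3-knockdown cells. The shares over all genes were 3.15% higher and 4.11% lower with Chd4 knocked down, and 2.11% higher and 3% lower with Mbd3 knocked down. Morc1 encodes a MORC ATPase needed to silence transposons in male germ cells. It read 722 in Chd4-knockdown cells and 362 in Mbd3-knockdown cells at day 4, against 45.7 in control. The day 0 values were 387 in Chd4-knockdown cells, 318 in Mbd3-knockdown cells and 397 in control. Control cells at day 4 were therefore the low group, and Morc1 was 15.8-fold higher in Chd4-knockdown cells and 7.91-fold higher in Mbd3-knockdown cells.

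Tdrd12, a Tudor protein of piRNA biogenesis, was likewise lowest in control at day 4. Its day 4 values were 208 in Chd4-knockdown cells, 244 in Mbd3-knockdown cells and 76.4 in control, and its day 0 values 337 in Chd4-knockdown cells, 375 in Mbd3-knockdown cells and 323 in control. It was 2.72-fold higher in Chd4-knockdown cells and 3.20-fold higher in Mbd3-knockdown cells than in control at day 4. Piwil2, which encodes the PIWI protein MILI, stood at 140 in Chd4-knockdown cells and 59.7 in Mbd3-knockdown cells at day 4, against 37.9 in control, and was at least 3.38-fold higher in Chd4-knockdown cells. At day 0 it stood at 98.7 in Chd4-knockdown cells, 56.4 in Mbd3-knockdown cells and 76.4 in control. The second PIWI gene, Piwil4, which encodes MIWI2, ranged from 34.8 to 56.4. Against the floor, it was at least 1.36-fold higher in Chd4-knockdown cells and at least 1.20-fold higher in Mbd3-knockdown cells than in control at day 4.

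Asz1 encodes an ankyrin-repeat protein of the germ-cell structure called nuage. It read 45.7 in Chd4-knockdown cells at day 4 and 21.1 to 21.7 on the other 5 arrays. Its fold over control was 2.17, but against the floor the bound was 1.10-fold, so the size of this difference is uncertain. Tdrkh, a Tudor and KH protein that anchors piRNA processing at mitochondria, was the 1 gene of the list at least 2-fold lower in either knockdown at day 4. It read 33.7 in Chd4-knockdown cells and 33.2 in Mbd3-knockdown cells at day 4, against 162 in control, at least 3.91-fold lower in both. At day 0 all 3 arrays lay under the floor, between 30.2 and 31.6.

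Mael, the maelstrom gene of transposon silencing, was the 1 germline gene at least 2-fold lower in Mbd3-knockdown cells at day 0. Its day 0 values were 67.6 in Chd4-knockdown cells and 56.3 in Mbd3-knockdown cells, against 121 in control, a log2 difference of -0.84 and -1.10. At day 4 it read 109 in Chd4-knockdown cells, 72.8 in Mbd3-knockdown cells and 70.3 in control. Ddx4, the VASA helicase that marks germ cells, was lower than control in both knockdowns at both days. Its log2 difference at day 4 was -0.77 in Chd4-knockdown cells and -0.38 in Mbd3-knockdown cells, and at day 0 was -0.53 in Chd4-knockdown cells and -0.31 in Mbd3-knockdown cells, over a range of 66.1 to 127.9. The helicase gene Mov10l1 ranged from 44.8 to 90.2 and was highest in control at day 0, while Tdrd1 (31.7 to 39.9) and Tdrd9 (33.0 to 36.5) stayed under the floor.

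For the chromosome axis, meiotic cohesin and the synaptonemal complex, 4 of 9 genes were at least 2-fold higher in Chd4-knockdown cells at day 4. In Mbd3-knockdown cells 1 of 9 was, with 0 lower in either. The shares over all genes were 3.15% higher and 4.11% lower with Chd4 knocked down, and 2.11% higher and 3% lower with Mbd3 knocked down. Smc1b, a subunit of meiotic cohesin, read 327 in Chd4-knockdown cells and 122 in Mbd3-knockdown cells at day 4, against 75.3 in control. The day 0 values were 65.9 in Chd4-knockdown cells, 44.2 in Mbd3-knockdown cells and 48.3 in control. At day 4 it was 4.35-fold higher in Chd4-knockdown cells than in control, and the log2 difference of the Mbd3 knockdown was 0.70.

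The HORMA-domain genes Hormad1 and Hormad2 encode axis proteins that mark chromosomes not yet paired. Hormad1 stood at 106 in Chd4-knockdown cells and 55.8 in Mbd3-knockdown cells at day 4, against 27.1 in control, at least 2.55-fold and at least 1.35-fold higher, and at 35.1 to 39.0 on the 3 day 0 arrays. Hormad2 reached the floor on 1 array, at 77.7 in Chd4-knockdown cells at day 4, and read 23.9 to 28.1 on the other 5. It was at least 1.88-fold higher than in control. Syce1, of the central element, read 109 in Chd4-knockdown cells and 52.0 in Mbd3-knockdown cells at day 4, against 49.9 in control, and 115 in Chd4-knockdown cells, 84.2 in Mbd3-knockdown cells and 91.6 in control at day 0. Syce1 was 2.19-fold higher in Chd4-knockdown cells than in control at day 4.

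The other 5 measured genes of this group stayed within 2-fold in all 9 comparisons. Rec8, the kleisin of meiotic cohesin, was higher at day 4 than at day 0 in each line, at 116 against 58.6 in Chd4-knockdown cells, 125 against 86.0 in Mbd3-knockdown cells and 105 against 54.9 in control. The cohesin gene Stag3 was lower at day 4 in each line, with log2 differences of -0.53 in Chd4-knockdown cells, -0.34 in Mbd3-knockdown cells and -0.63 in control. Sycp1, the transverse filament gene, ranged from 29.5 to 49.8, and Sycp2, of the lateral element, from 33.2 to 60.8 with its highest value in Chd4-knockdown cells at day 4. The central element gene Syce2 ranged from 187 to 244.

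Of 7 recombination genes, 1 was at least 2-fold higher in each knockdown at day 4 and 0 were lower (all genes 3.15% and 2.11% higher). That gene was Rec114, which is needed to make meiotic double-strand breaks. It read 139 in Chd4-knockdown cells and 110 in Mbd3-knockdown cells at day 4, against 44.4 in control, and was 3.14-fold and 2.48-fold higher. At day 0 it read 62.1 in Chd4-knockdown cells, 42.6 in Mbd3-knockdown cells and 56.6 in control. Tex15, which is needed to load recombinases and to silence transposons, lay just under 2-fold in Chd4-knockdown cells at day 4, at a log2 difference of 0.91, with 83.6 in Chd4-knockdown cells, 65.6 in Mbd3-knockdown cells and 44.5 in control. Dmc1, the meiotic recombinase, had a log2 difference of 0.49 in Chd4-knockdown cells and 0.34 in Mbd3-knockdown cells at day 4. The crossover genes Msh4 (29.4 to 33.5), Msh5 (at most 44.7) and Tex11 (35.6 to 45.7), and the break-formation gene Mei1 (29.7 to 37.8) had no value above 45.7.

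Among the other 4 germ-cell genes, Stk31, a Tudor-domain kinase-like gene, read 120 in Chd4-knockdown cells and 52.9 in Mbd3-knockdown cells at day 4, against 31.9 in control. It was at least 2.91-fold higher in Chd4-knockdown cells. The day 0 values were 47.4 in Chd4-knockdown cells, 40.2 in Mbd3-knockdown cells and 49.0 in control. Slc25a31, a mitochondrial ADP/ATP carrier of the testis, ranged from 29.0 to 44.4 and was at least 1.07-fold higher in Chd4-knockdown cells than in control at day 4. The surface glycoprotein gene Tex101 (27.3 to 37.0) and the membrane dipeptidase gene Dpep3 (27.2 to 32.7) stayed under the floor.

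Day 4 was then set against day 0 within each line. With Chd4 knocked down, 9 genes passed 2-fold upward at day 4, against 1.03% of all genes, and 0 lower, against 0.699%, with a median of 0.21. They were Dazl (3.06 on the log2 scale), Smc1b (2.31), Stra8 (1.87), Sohlh2 (1.64), Stk31 (1.35) and Rec114 (1.17), and with dim day 0 values Hormad1 (at least 1.35), Hormad2 (at least 0.91) and Asz1 (at least 0.14). With Mbd3 knocked down, 5 genes passed 2-fold upward, against 0.965% of all genes, and 0 lower, against 0.663%, with a median of 0.06. These were Dazl (2.44 on the log2 scale), Sohlh2 (2.16), Smc1b (1.47), Rec114 (1.37) and Stra8, which was at least 2.82-fold higher. In control cells 1 gene was at least 2-fold higher at day 4 (Tdrkh), against 5.08% of all genes. There 4 were lower (Dazl, Piwil2, Tdrd12 and Morc1), against 2.93%, with a median log2 difference of -0.27. Piwil2 lay under the floor in control at day 4, and with the floor 3 genes stayed at least 2-fold lower, against 2.8% of all genes. Dazl thus differed between the days by 3.06 in Chd4-knockdown cells and 2.44 in Mbd3-knockdown cells, against -1.19 in control, and Morc1 by 0.90 in Chd4-knockdown cells and 0.19 in Mbd3-knockdown cells, against -3.12 in control.

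**Figure D3:**
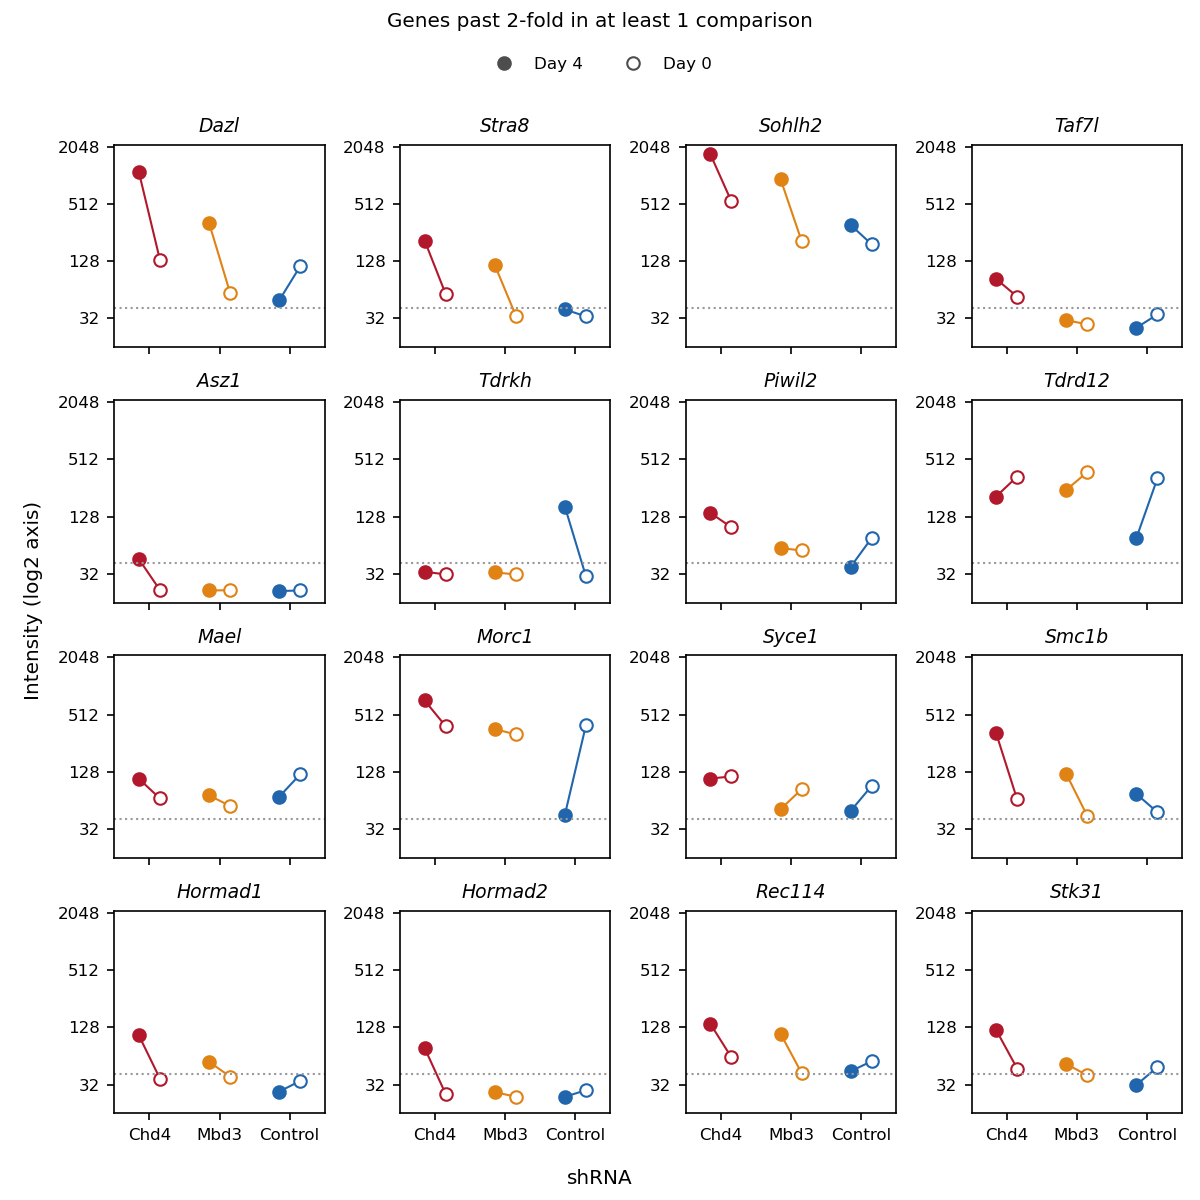
Intensity (log2 axis) at day 4 (filled) and day 0 (open) of the 16 genes that passed 2-fold in at least 1 of the 9 comparisons, with the Chd4 knockdown in red, the Mbd3 knockdown in orange and control in blue from left to right, and the floor of 41.4 dotted. Dazl stands at 1104 in Chd4-knockdown cells and 324 in Mbd3-knockdown cells at day 4, against 49.5 in control; Morc1 and Tdrd12 differ by their low control value at day 4, and Tdrkh by its high one.

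The knockdowns were also set against each other. Set against the Mbd3 knockdown at day 4, 8 genes passed 2-fold upward in Chd4-knockdown cells, against 0.559% of all genes, and 0 were lower, against 0.108%. Dazl was 3.41-fold higher, Smc1b 2.68-fold, Piwil2 2.34-fold, Stk31 2.28-fold and Syce1 2.10-fold, and Taf7l, Hormad2 and Asz1 at least 2.01-fold, 1.88-fold and 1.10-fold. Morc1 lay at the edge with a log2 difference of 1.00, just under 2-fold. Of the 38 genes 31 were higher in Chd4-knockdown cells by any amount, against 49.9% of all genes, with a median of 0.24. Tdrd12, at 208 in Chd4-knockdown cells and 244 in Mbd3-knockdown cells, was among the 7 that were lower. At day 0, Dazl (1.15 on the log2 scale) and Sohlh2 (1.38) were the 2 genes at least 2-fold higher in Chd4-knockdown than in Mbd3-knockdown cells, against 0.352% of all genes, with 0 lower, against 0.280%. Dazl in Mbd3-knockdown cells stood below control there, at 59.6 against 113.

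**Figure D4:**
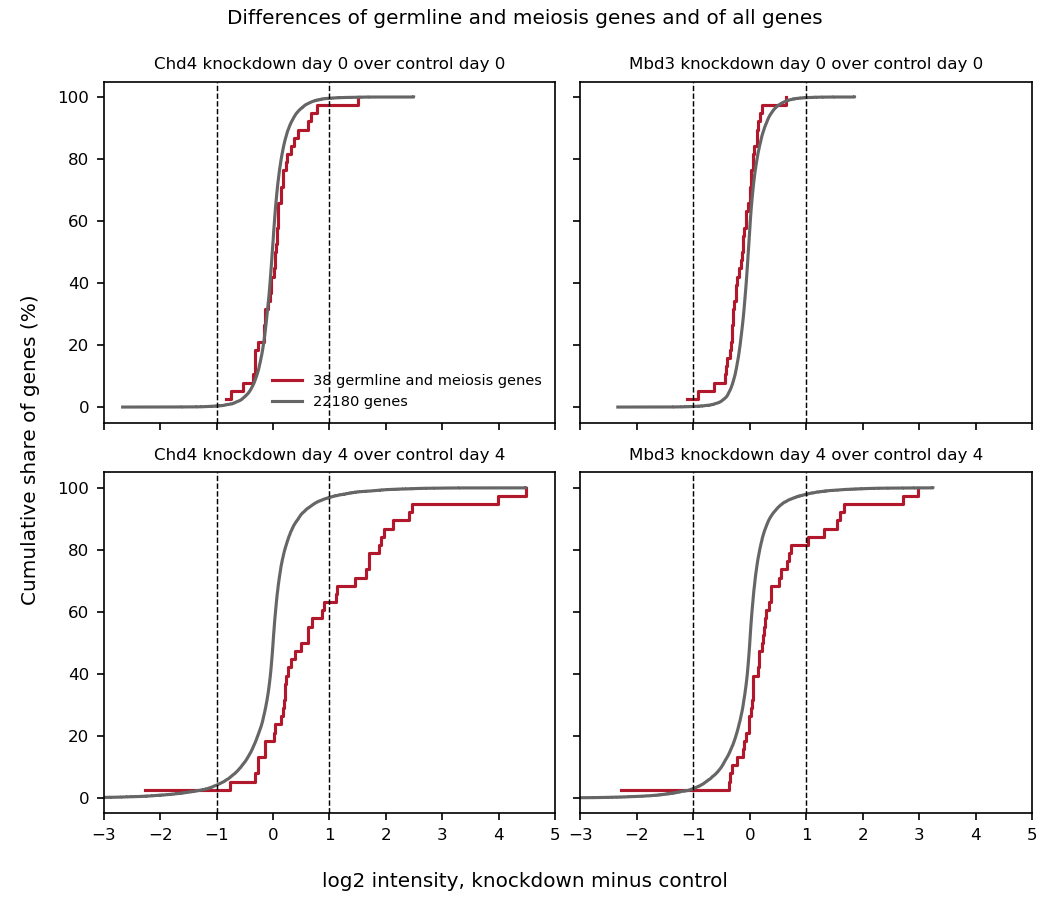
Cumulative share of genes (vertical axis, %) by log2 difference, knockdown minus control (horizontal axis), for the 38 germline and meiosis genes (red) and all 22180 genes (grey), with 2-fold dashed; grey curves run beyond the axis. At day 0 the medians of the 38 genes are 0.05 in Chd4-knockdown cells and -0.13 in Mbd3-knockdown cells; at day 4 the red curves lie to the right, with medians of 0.55 and 0.22.

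A model with additive effects of shRNA and day was fitted with limma over the 6 arrays, in which effects that differ between lines or days count as error. Of the 38 genes, 23 reached the median level needed to enter. Entry used the mean over all 6 arrays, so it favours dim genes that were high on some of them. Stra8 was above the floor in knockdown cells alone, so its result below, and any count that holds it, is not free of that selection. With Benjamini-Hochberg adjustment over 12926 genes, 0 of 23 were called for Chd4 over control, Mbd3 over control, Chd4 over Mbd3 and day 4 over day 0, as were 0% of all genes in each of the 4 contrasts. At an unadjusted p under 0.05 the counts were 7, 0, 3 and 8 of 23, with 1014, 647, 358 and 1962 of all genes, and limma with an intensity trend also called 0. The 7 genes for Chd4 over control were Sohlh2, with a log2 difference of 1.98 ± 0.37 (SE), Stra8 (1.59), Smc1b (1.28), Piwil2 (1.13) and Syce1 (0.73), which were higher, and Ddx4 (-0.65) and Mov10l1 (-0.51), which were lower, each at an adjusted p = 0.615 by limma. Rec8 had the lowest adjusted p between the days, 0.181, at 0.82 ± 0.15 (SE), and was higher at day 4 in 3 of 3 lines.

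Without the control pair, limma takes the Chd4 and Mbd3 lines as repeats for the difference between days. The days serve as repeats for the difference between knockdowns, with 1 residual degree of freedom. This was the only fit that called any gene, and those without the Chd4 pair or the Mbd3 pair called none. With different knockdowns and 1 array per day in each, this fit cannot measure the spread between cultures. It then called 8 of 23 germline genes between the days, against 5.28% of 12926 genes, and 1 between the knockdowns, Dazl, against 0.139%. Higher at day 4 were Dazl (log2 difference 2.75 ± 0.18 (SE), limma adjusted p = 0.00115), Sohlh2 (1.90), Smc1b (1.89), Stra8 (1.82), Rec114 (1.27), Hormad1 (1.01) and Rec8 (0.76), and Tdrd12 was lower (-0.66), with adjusted p from 0.00115 to 0.0435. Each of these 8 differed in the same direction in 2 of 2 knockdown lines. The fit favours genes on which its 2 lines agree, so this is no added support. Genes entered the fit on a mean that counts the day 4 knockdown arrays, so entry favours dim genes that were high there. Hormad1 reached the floor on those 2 arrays alone, and Stra8 on those and in Chd4-knockdown cells at day 0. Their calls are therefore not free of that selection. In the left-out control pair Dazl (-1.19), Rec114 and the dim Hormad1 were lower at day 4, and the other called genes kept their direction. Dazl was higher by 1.46 ± 0.18 (SE) in Chd4-knockdown than in Mbd3-knockdown cells, with a limma adjusted p = 0.0360.

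Further genes of the same pathways were counted in the same way at day 4. Their lists were drawn up by function, with earlier results of these data known. Of all genes, 3.15% were higher and 4.11% lower with Chd4 knocked down, and 2.11% higher and 3% lower with Mbd3 knocked down. Of 21 other meiosis genes, 1 was at least 2-fold higher in Chd4-knockdown cells than in control and 0 lower, and 1 and 0 in Mbd3-knockdown cells, a share near that of all genes. It was Ccnb1ip1, a gene needed for crossovers, at 301 in Chd4-knockdown cells and 168 in Mbd3-knockdown cells, against 62.4 in control. Of 10 other piRNA pathway genes 1 was at least 2-fold higher in Chd4-knockdown cells, Gtsf1, at 80.5 against 26.9 in control (at least 1.94-fold), and 0 in Mbd3-knockdown cells. Of 9 genes of primordial germ cell specification, 1 was at least 2-fold higher in Chd4-knockdown cells and 3 in Mbd3-knockdown cells, with 0 lower in either. The 1 gene in Chd4-knockdown cells was Dppa3, which guards methylation in the early embryo, at 187 in Chd4-knockdown cells and 63.6 in Mbd3-knockdown cells, against 39.3 in control. The 3 genes in Mbd3-knockdown cells, named after their values were seen, were the germ cell transcription factor genes Prdm1 (log2 difference 1.70) and Tfap2c (1.38), and the alkaline phosphatase gene Alpl (1.06). In Chd4-knockdown cells these stood at 0.78, 0.84 and 0.98 in the same order.

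The genes that silence the germline program in other settings were read as well. Of 23 such repressors, 4 passed 2-fold upward and 2 downward in Chd4-knockdown cells at day 4, and 2 upward and 1 downward in Mbd3-knockdown cells; few genes stand behind each count, and those downward are near the shares over all genes given above. Dnmt3l, a cofactor of DNA methylation, read 573 in Chd4-knockdown cells and 514 in Mbd3-knockdown cells, against 70.9 in control. The methyltransferase gene Dnmt3b had a log2 difference of 1.45 in Chd4-knockdown cells and 1.19 in Mbd3-knockdown cells, and Dnmt3a of 1.09 and 0.48. L3mbtl2, of the variant Polycomb complex, stood at 1.41 and 0.92. Lower in Chd4-knockdown cells were its partner gene Yaf2 (-1.49, against -0.98 in Mbd3-knockdown cells) and E2f6, which encodes the E2F6 repressor, at 145 in Chd4-knockdown cells and 162 in Mbd3-knockdown cells, against 346 in control. At day 0 E2f6 was instead higher in the knockdowns, at 285 in Chd4-knockdown cells and 208 in Mbd3-knockdown cells, against 134 in control.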

How the data were processed

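Each of 6 groups had its total RNA read on 1 Mouse Gene 2.0 ST array. The authors deposited linear intensities (17.4 to 7980). The submitters' processing notes name RMA and the series design text GeneSpring GX 12.6.1; no genome build is given in the sources used here. Each array's lowest value lies above 17, so a constant of 16 may have been added, which no source states; it would shrink folds of dim genes. Intensities were put on the log2 scale as deposited. Of 34351 probe sets 23521 carried 1 symbol, which was updated through RefSeq (GRCm38.p6), and the probe set with the highest mean stood for a gene. Counts at 2-fold (a log2 difference of 1) include every measured gene, with no filter on low values.

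limma 3.58.1 (R 4.3.3) modelled shRNA and day over 12926 genes with a mean at or above the median probe set, with 2 residual degrees of freedom, calling at a Benjamini-Hochberg adjusted p under 0.05. Groups hold 1 sample, so p-values cannot measure the spread between cultures. The fit was tried on simulated data with lower noise and no effects that differ between lines or days. That trial does not show how well it suits these arrays. Python 3.11.15, numpy 2.4.6 and pandas 2.3.3 did the rest.

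Every measured member is named. Values on all 6 arrays, some as a range, are given for those past 2-fold in any comparison. Of the 11 other lists, up to 4 genes in each direction are named. These had the largest difference past 2-fold in the Chd4 comparison at day 4. Members and lists were chosen with earlier results of these data known. Alternatives changed the offset, a floor for dim values, an entry filter, the choice of probe set, the centring of arrays and the arrays in the fit.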

Additional observations from a re-analysis of the deposited data

Results flagged for a closer look

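Dazl differed between the days in opposite directions in the lines, by at least 2-fold each. Its log2 difference of day 4 from day 0 was 3.06 in Chd4-knockdown cells and 2.44 in Mbd3-knockdown cells, against -1.19 in control. Each value rests on 1 pair of arrays and the differences between the lines were not tested. No other measured gene of the list was past 2-fold in opposite directions for the same contrast.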

How the results depend on the processing

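No paired analysis was possible because each group holds 1 array with no replicate number, and the additive fit already holds the line as a term beside the day. With 1 array per group, the size of a difference rather than a test decides each count, and signals near the array medians limit it. After subtraction of 16 from all intensities, 3 genes in place of 1 were at least 2-fold higher in Chd4-knockdown cells at day 0. There 1 in place of 0 was lower (all genes 0.978% higher and 0.821% lower). In Mbd3-knockdown cells at day 0, 3 in place of 1 were lower (all genes 0.573%). Between the days in control, 2 in place of 1 were then higher and 9 in place of 4 lower (all genes 7.34% and 4.68%), with a median of -0.53. At day 0, 6 in place of 2 were higher in Chd4-knockdown than in Mbd3-knockdown cells (all genes 0.866%). The day 4 count of the Chd4 knockdown was 18 in place of 14, with 4.91% of all genes, and the Mbd3 median at day 4 was 0.40 in place of 0.22. With values under the floor set to it, the median was 0.22 for Chd4 and 0.045 for Mbd3 at day 4, 0.088 between the days in the Chd4 knockdown and -0.022 in control, and 0.13 for Chd4 over Mbd3 at day 4. Keeping only genes whose brighter array reached its median lets a gene in through the array where it is high, and so favours genes that differ. The medians then moved to 0.87 (Chd4 at day 4) and 0.50 (Chd4 over Mbd3 at day 4). Between the days they moved to 0.57, 0.24 and -0.46 in the Chd4 knockdown, the Mbd3 knockdown and control. These shifts come with that selection and are no support for larger differences. Centring each array on its median put 2 genes in place of 1 at least 2-fold higher between the days in control (all genes 5.69%). Without the control pair limma called 8 genes in place of 0 between the days and 1 in place of 0 between the knockdowns. Of those 8, Hormad1 and Stra8 entered the fit on means that their high day 4 knockdown values raised. Without the Chd4 pair or the Mbd3 pair limma called 0. Of the recomputed differences of single genes, 1393 moved by less than the residual spread and 214 by more, and 0 of those past 2-fold reversed direction. The mean over probe sets changed nothing, since each gene had 1, and the entry filter only drops genes. Subtraction of 16 and the floor cannot reverse a direction. The array medians, 39.6 to 41.4, lie too close together for centring to reverse a difference past 2-fold. None of the alternatives could have reversed one. These counts are thus little measure of robustness.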

Other observations

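Genes of DNA demethylation and of the retinoic acid response were read as well at day 4. Of 3 measured DNA demethylation genes, 2 were at least 2-fold higher in Chd4-knockdown cells than in control (all genes 3.15%), and Tet3 had a log2 difference of -0.69. Tet1, which oxidizes methylated cytosine, read 1190 in Chd4-knockdown cells and 1006 in Mbd3-knockdown cells, against 373 in control, and Tet2 read 444 in Chd4-knockdown cells and 287 in Mbd3-knockdown cells, against 213 in control. Of 9 retinoic acid response genes, 1 was at least 2-fold higher and 3 lower in Chd4-knockdown cells, and 0 higher and 4 lower in Mbd3-knockdown cells. The shares over all genes were 3.15% higher and 4.11% lower with Chd4 knocked down, and 2.11% higher and 3% lower with Mbd3 knocked down. The retinoic-acid-binding protein genes Crabp1 and Crabp2 had log2 differences of -3.37 and -2.74 in Chd4-knockdown cells, while the receptor gene Rarg stood at 1.01. The homeobox gene Hoxb1 read 93.6 in Chd4-knockdown cells and 158 in Mbd3-knockdown cells, against 530.4 in control.

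Among the marker lists, Wt1, a gene of the gonadal ridge and kidney, read 158 in Chd4-knockdown cells and 164 in Mbd3-knockdown cells at day 4, against 61.1 in control, and Sox9, which neural cells express too, read 62.8 in Chd4-knockdown cells and 90.4 in Mbd3-knockdown cells, against 247 in control. The early neural markers Fabp7, Meis1, Ptn and Hes5 had log2 differences of -3.77, -3.73, -3.08 and at most -2.92 in Chd4-knockdown cells at day 4. The naive stem cell markers Tcl1, Tbx3, Zfp42 and Tfcp2l1 stood at 2.46, 2.36, 2.04 and 1.91 in the same comparison.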
